A study of Mus musculus with 51 samples.

Results

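Loss of both Bmal1 and Vhl was compared with the matching floxed control in gastrocnemius, a calf muscle of the mouse. The comparison rests on 10 of the 51 libraries of the series. They were taken by genotype label: 4 double knockout animals (Bmal1KO;VhlKO) and 6 controls with floxed alleles of both genes (Bmal1fx/fx;Vhlfx/fx), with 1 library per animal. All 10 animals were on a high-fat diet and belong to the batch labelled 2, as do the single knockouts used below for contrast: 4 Vhl knockouts (VhlKO) with 6 Vhlfx/fx controls, and 4 Bmal1 knockouts (Bmal1KO) with 8 Bmal1fx/fx controls. No library is shared between these 3 comparisons. The series describes its Bmal1 knockout as specific to skeletal muscle. The driver of the Cre recombinase, the exons deleted, the age and sex of the animals and the hour of collection were not given in the sources used here. Whole muscle was frozen and homogenized, so vessels, blood, nerve and connective tissue contributed RNA. Reads were QuantSeq tags, 1 short read near the 3′ end of each mRNA, and all 13093 genes that passed a filter on low counts were tested.

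BMAL1 (gene Arntl) pairs with CLOCK, binds E-box elements and drives the Period, Cryptochrome and REV-ERB genes, whose products feed back on it. VHL is the part of a ubiquitin ligase that recognises the hydroxylated alpha subunits of HIF, the hypoxia-inducible factor, and sends them to the proteasome; without VHL, HIF persists in normal oxygen. HIF binds short hypoxia response elements beside genes for glycolysis, vessel growth and mitochondrial remodelling. In muscle the clock times glucose uptake and oxidation, and HIF favours glycolysis over oxidation.

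Of the targeted genes, Arntl stood at 14.0, 9.32, 9.63 and 13.3 CPM in knockouts 1 to 4, and 13.8 to 17.8 CPM (median 16.1) in the controls. The groups touched at their edges, with the highest knockout inside the control range, and the difference passed the test (log2 fold change −0.48 ± 0.13, adjusted p = 0.00213, with the SE after ±, from edgeR's quasi-likelihood test with Benjamini-Hochberg adjustment over all genes tested, as in all such values below). Vhl was at 3.84, 2.26, 2.70 and 1.64 CPM in knockouts 1 to 4, and 3.48 to 5.62 CPM (median 4.14) in the controls, again with overlap, and its log2 fold change was −0.78 ± 0.26, adjusted p = 0.018. The Vhl call was lost without knockout 2 (adjusted p = 0.0569) and without knockout 4 (adjusted p = 0.0875). Neither gene was called without the TMM scaling explained below, at −0.13 (adjusted p = 0.397) for Arntl and −0.42 (adjusted p = 0.209) for Vhl. Each tag covers only the last stretch of an mRNA, and which exons were removed is not known here, so neither value tests the deletion. CPM is the usual unit of a gene's counts relative to the size of its library, here after scaling by trimmed mean of M values (TMM). Sums over marker lists are the exception and are given in CPM without TMM.

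The libraries held 9351698 to 14717795 counts in the controls and 6945247 to 11249267 in the double knockouts. Correlations of log2 CPM were 0.973 to 0.983 among controls, 0.965 to 0.978 among knockouts and 0.942 to 0.958 between the groups. Transcripts of the mitochondrial genome took 19.7% ± 3.06 of counts in the knockouts (SD, n = 4) and 27.4% ± 2.66 in the controls (SD, n = 6). The difference of −7.68 percentage points gave an exact 2-sided permutation p of 0.00952 over 210 splits, and the groups overlapped, with knockout 4 at 23.0% and control 4 at 22.3%. The TMM factor ran from 1.20 to 1.32 in the knockouts and from 0.937 to 1.08 in the controls. Without it the median gene would read 0.352 higher on the log2 scale, so every change below is relative to the bulk of genes in this muscle. The defining transcripts of muscle fibres (Acta1, Ckm, Myh4, Myh1, Myh2, Tnnt3 and Mb) were abundant in all 10 libraries, at 9.37% ± 0.393 of counts in the knockouts and 10.5% ± 0.358 in the controls. Knockout 4 stood apart in keratinocyte markers, which summed to 90.2 CPM there against 5.00 to 16.6 CPM in the controls, and knockout 1 in neutrophil markers, at 27.1 CPM against 1.61 to 4.81 CPM.

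Of the 13093 genes, 4638 changed, which is 35.4% of those tested; 2272 rose (17.4%) and 2366 fell (18.1%). Of the calls, 2209 were under 1.5-fold; 668 genes rose and 385 fell by more than 2-fold, and 107 rose and 58 fell by more than 4-fold. In 3145 genes (24%) the CPM of the 4 knockouts did not overlap that of the 6 controls, with the knockouts above in 11.2% and below in 12.8%. Without TMM scaling the count of calls was 7008, of which 88.9% were higher, against 49% higher with it. That background is the measure for each gene group below: a group in which about 1 gene in 6 rose and 1 in 6 fell has done what all genes did.

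Mylk4, a member of the myosin light chain kinase family expressed in muscle, had the largest fall of any gene past an average log2 CPM of 2. It was at 2.85, 3.35, 3.55 and 3.91 CPM in knockouts 1 to 4, and 576 to 687 CPM (median 607) in the controls. Each knockout thus retained only a trace of a transcript that is abundant in every control, and the log2 fold change was −7.47 ± 0.15, adjusted p = 6.32e-32. It fell in both single knockouts as well, by less, with log2 fold changes of −1.82 ± 0.10, adjusted p = 3.4e-17 in the Vhl knockout and −3.98 ± 0.11, adjusted p = 8.07e-26 in the Bmal1 knockout. The double knockout effect was lower than either: the difference was −5.65 ± 0.16, adjusted p = 2.84e-25 against the Vhl effect and −3.49 ± 0.16, adjusted p = 6.26e-19 against the Bmal1 effect.

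The other large falls, by the same rule, took in several regulators. Cdh4 (R-cadherin, an adhesion molecule) fell (log2 fold change −3.23 ± 0.25, adjusted p = 1.15e-11). Rasd2, a small GTPase of the Ras family, was at 6.25, 3.42, 4.78 and 5.17 CPM in knockouts 1 to 4, and 31.9 to 50.4 CPM (median 44.9) in the controls, without overlap (−3.14 ± 0.15, adjusted p = 2.37e-19). Snai3, a zinc finger factor of the Snail family, was at 0.877 to 1.02 against 5.81 to 9.72 CPM in knockouts and controls, a log2 fold change of −2.99 ± 0.28, adjusted p = 2.32e-11. Otub2, a deubiquitinase (−2.70), Nmrk2, the nicotinamide riboside kinase of muscle (−2.70), Dkk3, a secreted Dickkopf family protein (−2.67), and Mlf1, myeloid leukaemia factor 1 (−2.39), also fell. Dkk3 fell from 478 counts over the 6 controls to 53 over the 4 knockouts, and Snai3 from 513 to 46, so both folds rest on few reads. Tcap and Dbp, the last of the 10, are described with the Z-disc and the clock.

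Among the 10 largest rises were known HIF targets and genes of other kinds. Chrna9, the alpha 9 subunit of nicotinic acetylcholine receptors, had 1638 counts over the 4 knockouts and 8 over the 6 controls, 6 of those in control 6. Its pooled level was 33.7 CPM in knockouts and 0.117 CPM in controls; the fitted log2 fold change of 8.08 depends on the small count added to values near 0. Tph1, the rate-limiting enzyme of peripheral serotonin synthesis, was at 58.5, 94.7, 109 and 105 CPM in knockouts 1 to 4, and 0.443 to 1.11 CPM (median 0.966) in the controls, far apart in every animal (6.74 ± 0.19, adjusted p = 6.73e-26). Cdkn1a, the cell cycle inhibitor p21, was at 886, 907, 652 and 779 CPM in knockouts 1 to 4, and 26.9 to 47.6 CPM (median 44.9) in the controls. The lowest knockout was over 10 times the highest control (4.26 ± 0.24, adjusted p = 3.34e-14). Ndufa4l2, a mitochondrial protein known as a HIF-1 target, was at 28.7 to 52.3 against 2.07 to 3.37 CPM (3.96 ± 0.18, adjusted p = 6.26e-20). Sln and Pln, both inhibitors of the calcium pump SERCA, are described with calcium handling.

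**Figure D1:**
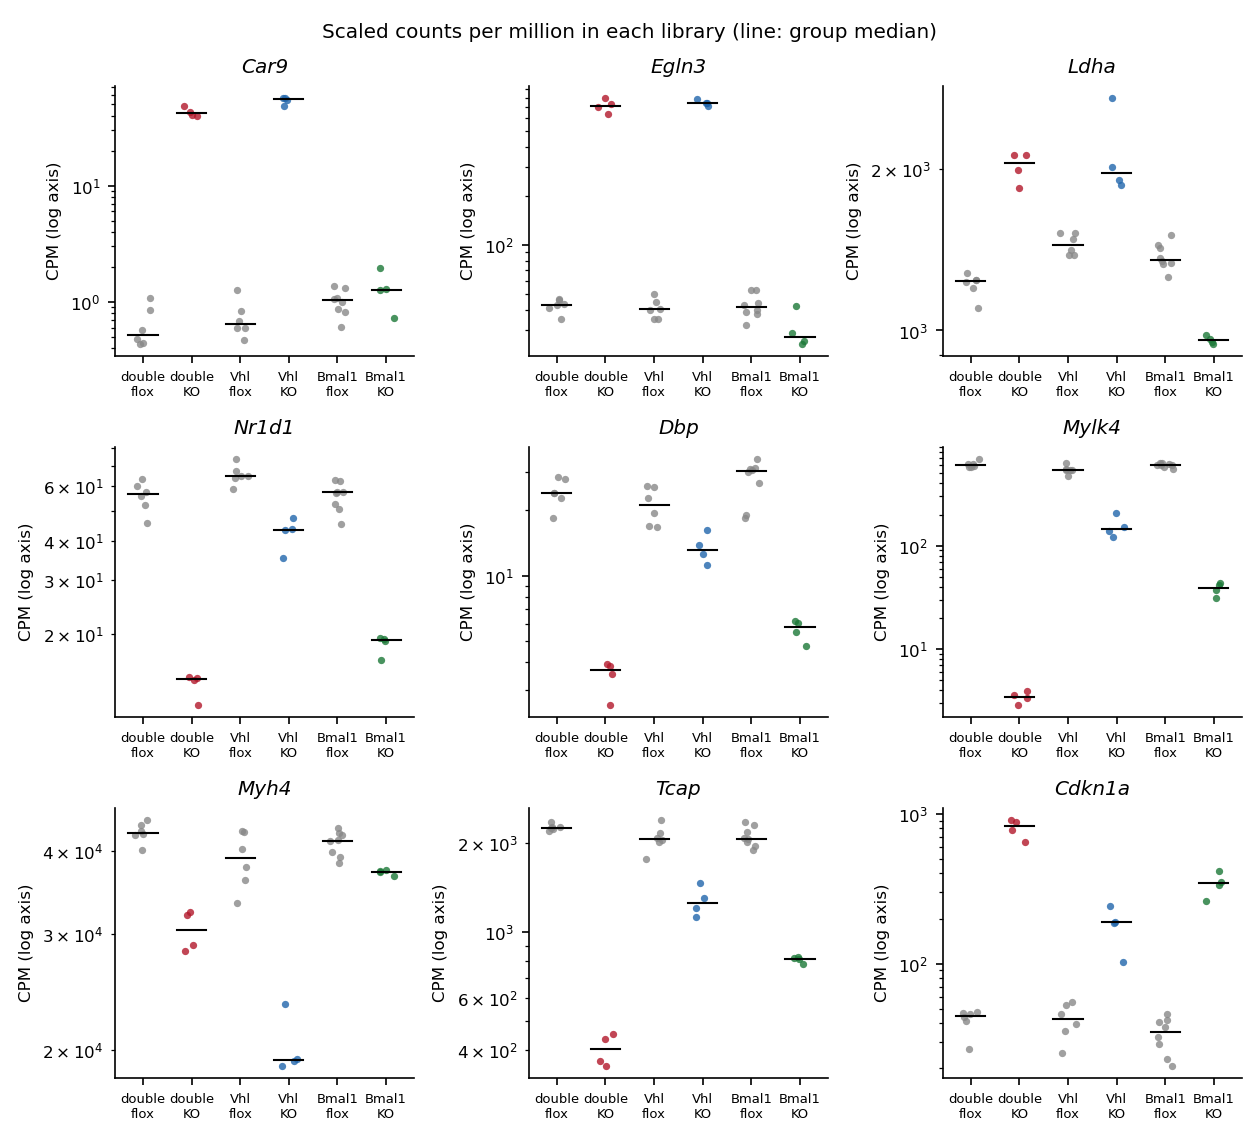
CPM (log axis) of 9 genes in each library of the double knockout, the Vhl knockout, the Bmal1 knockout and their floxed controls; points are animals and the line is the group median. Car9, Egln3 and Cdkn1a lie higher in the 4 double knockouts than in all 6 of their controls, and Mylk4, Tcap, Dbp, Nr1d1 and Myh4 lie lower.

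Most of the HIF-induced genes rose. Of the 29 measured members of a list of HIF-induced signalling, matrix and mitochondrial genes, 19 rose and 2 fell (median log2 fold change 0.82), against 17.4% rising and 18.1% falling among all genes. In single animals the median of the list, relative to the control mean, was 0.71 to 1.14 in the knockouts and −0.08 to 0.07 in the controls. The promoters of a pair of these genes, both higher in every knockout than in any control, are shown as examples. Sequences are 250 bases before to 50 bases after the annotated start, from RefSeq on GRCm38.p6. Capitals mark the core of the hypoxia response element, searched as ACGTG or GCGTG on both strands. The core is common: 60.9% of the 12249 promoter entries of tested genes hold it.
Car9 (chr4:43506776-43507075, plus strand): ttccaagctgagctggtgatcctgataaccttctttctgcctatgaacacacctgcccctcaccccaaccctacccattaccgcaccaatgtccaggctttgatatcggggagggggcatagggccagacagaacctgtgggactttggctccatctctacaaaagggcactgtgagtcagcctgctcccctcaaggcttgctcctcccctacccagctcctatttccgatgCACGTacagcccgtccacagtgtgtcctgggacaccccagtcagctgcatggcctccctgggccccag
P4ha1 (chr10:59323046-59323345, plus strand): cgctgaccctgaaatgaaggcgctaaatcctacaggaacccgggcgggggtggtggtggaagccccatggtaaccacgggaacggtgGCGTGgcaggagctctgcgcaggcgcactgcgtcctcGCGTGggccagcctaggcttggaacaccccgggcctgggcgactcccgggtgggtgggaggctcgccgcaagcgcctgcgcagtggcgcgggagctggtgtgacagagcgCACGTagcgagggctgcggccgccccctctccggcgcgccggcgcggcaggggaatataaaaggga
The Car9 window holds 1 core and the P4ha1 window 3. Of the 20 list members with a promoter in the table, 17 hold a core (85%), against 63% of the 9522 tested genes with one, taking the first listed promoter of each gene. The E-box outputs of the clock, described below, held it in 13 of 13. Among genes that rose over 2-fold the share was 53%. A match describes letters, not binding. The HIF list was drawn up as HIF-induced genes, so its share of cores is not an independent result.

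Car9, the membrane carbonic anhydrase that exports acid from hypoxic cells, was at 39.4, 43.1, 40.4 and 48.5 CPM in knockouts 1 to 4, and 0.435 to 1.07 CPM (median 0.525) in the controls. The groups were far apart and the log2 fold change was 6.04 ± 0.16, adjusted p = 2.72e-32. Ak4, a mitochondrial adenylate kinase, was at 165, 172, 169 and 158 CPM in knockouts 1 to 4, and 1.14 to 2.96 CPM (median 2.04) in the controls (6.31 ± 0.13, adjusted p = 1.34e-36), and the 4 knockouts lay close together. P4ha1, a catalytic subunit of the prolyl hydroxylase that matures collagen, was at 91.4, 108, 108 and 122 CPM in knockouts 1 to 4, and 20.3 to 30.8 CPM (median 24.7) in the controls (2.11 ± 0.09, adjusted p = 1.34e-24). Bnip3 and Bnip3l, receptors of mitophagy, rose, at 431 to 564 against 143 to 172 CPM (log2 1.65) and 43.7 to 44.4 against 18.2 to 21.2 CPM (log2 1.16), without overlap between groups. The 2 members that fell were Rora, also a clock gene, and Tfrc, the transferrin receptor, which was chosen after its values were seen (log2 −0.57).

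The regulators of HIF itself moved in both directions. Egln3, an oxygen-sensing prolyl hydroxylase that is itself a HIF target, was at 792, 699, 633 and 731 CPM in knockouts 1 to 4, and 35.02 to 46.5 CPM (median 43.0) in the controls. Each knockout exceeded all controls by a wide margin (4.07 ± 0.13, adjusted p = 4.65e-21). Egln1, the main hydroxylase of HIF alpha subunits, was at 436 to 468 against 188 to 213 CPM in knockouts and controls (1.18 ± 0.06, adjusted p = 1.67e-21). Epas1, which encodes HIF-2 alpha, rose by log2 0.47 ± 0.08, adjusted p = 1.92e-06, whereas Hif1a mRNA fell (log2 fold change −0.60 ± 0.12, adjusted p = 0.000105), a call lost without TMM scaling (−0.25, adjusted p = 0.0941). In all, 3 rose and 4 fell (median log2 fold change −0.17) among 9 regulators.

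Most clock outputs fell. Of 15 genes known as E-box outputs of CLOCK and BMAL1, 1 rose and 10 fell (median log2 fold change −1.09). Dbp, a PAR bZIP factor driven by BMAL1, was at 3.84, 2.55, 3.93 and 3.52 CPM in knockouts 1 to 4, and 18.5 to 28.5 CPM (median 23.9) in the controls. All knockouts lay far under all controls (−2.82 ± 0.19, adjusted p = 4.56e-14). Nr1d1, encoding the repressor REV-ERB alpha, was at 11.8, 14.3, 14.5 and 14.6 CPM in knockouts 1 to 4, and 45.7 to 63.5 CPM (median 56.6) in the controls (−2.01 ± 0.10, adjusted p = 8.92e-22), again with no overlap. Its partner Nr1d2 (REV-ERB beta), chosen after its values were seen, was at 11.6 to 18.7 against 48.7 to 65.0 CPM (−2.06 ± 0.14, adjusted p = 1.21e-14). The other PAR bZIP factors Tef (log2 −1.44) and Hlf (log2 −2.02) and the repressor Bhlhe41, known as DEC2 (log2 −1.66), fell too.

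Cry1, the repressor cryptochrome 1, was the list's only riser, at 10.3, 11.0, 9.71 and 11.9 CPM in knockouts 1 to 4, and 6.27 to 9.92 CPM (median 7.16) in the controls (0.51 ± 0.14, adjusted p = 0.00348), with the lowest knockout inside the control range. Per2, which encodes a repressor of the Period family, was at 2.52, 1.89, 1.62 and 2.90 CPM in knockouts 1 to 4, and 2.39 to 5.44 CPM (median 4.16) in the controls; the ranges overlapped and the log2 fold change was −0.82 ± 0.24, adjusted p = 0.00664, a call lost without TMM scaling (−0.48, adjusted p = 0.102). Ciart, a clock repressor, was at 0.308 to 0.658 against 1.95 to 4.21 CPM (−2.70 ± 0.35, adjusted p = 1.95e-08), but that is 23 counts over the 4 knockouts and 218 over the 6 controls. Cry1, Per2 and Ciart were chosen after their values were seen. In a list of the positive arm of the clock and factors beside it, Clock (log2 0.76 ± 0.08, adjusted p = 1.22e-11) and its paralog Npas2 (1.72) rose. The Npas2 value rests on 110 counts over the 4 knockouts and 46 over the 6 controls. Nfil3, a repressor that competes with DBP for D-boxes and so not part of the positive arm, rose too (1.00). Rora, an activator of Arntl, fell (−0.64). Of the 6 members measured, Nfil3 among them, 3 rose and 2 fell. The hour of collection is not known here, so a level cannot be told apart from a phase.

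The promoters of Nr1d1 and Bhlhe41 are shown because both fell over 3-fold with no overlap. Capitals again mark ACGTG or GCGTG on both strands; the E-box CACGTG contains ACGTG and is held by 9.93% of the promoter entries of tested genes.
Nr1d1 (chr11:98775328-98775627, minus strand): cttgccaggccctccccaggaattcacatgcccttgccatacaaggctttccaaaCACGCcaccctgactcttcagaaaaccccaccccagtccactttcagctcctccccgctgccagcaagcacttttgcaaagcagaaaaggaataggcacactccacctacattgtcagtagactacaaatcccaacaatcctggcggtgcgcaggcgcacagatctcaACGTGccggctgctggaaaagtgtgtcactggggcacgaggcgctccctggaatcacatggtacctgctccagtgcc
Bhlhe41 (chr6:145865371-145865670, minus strand): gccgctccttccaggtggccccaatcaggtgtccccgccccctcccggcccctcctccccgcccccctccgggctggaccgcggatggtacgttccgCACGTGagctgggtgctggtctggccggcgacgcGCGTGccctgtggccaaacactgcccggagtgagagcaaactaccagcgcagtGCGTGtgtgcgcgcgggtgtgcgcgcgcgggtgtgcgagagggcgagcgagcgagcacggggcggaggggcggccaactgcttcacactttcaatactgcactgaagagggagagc
The Bhlhe41 window holds 4 cores, 2 of them (1 on each strand) inside its 1 E-box, and the Nr1d1 window holds 2 cores and 0 E-boxes. Over the 13 list members in the table, 5 hold an E-box (38.5%), against 10.5% of tested genes and 15.9% of those that fell over 2-fold. The list was drawn up as known E-box outputs, so its share is not an independent result. For contrast, the window of Mylk4, whose fall was the deepest, follows.
Mylk4 (chr13:32783915-32784214, minus strand): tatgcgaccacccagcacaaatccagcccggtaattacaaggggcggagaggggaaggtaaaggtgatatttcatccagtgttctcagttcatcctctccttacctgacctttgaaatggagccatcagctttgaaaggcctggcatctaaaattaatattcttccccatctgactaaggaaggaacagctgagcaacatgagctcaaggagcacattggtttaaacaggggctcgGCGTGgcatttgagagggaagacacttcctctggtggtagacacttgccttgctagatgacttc
It holds 1 core and 0 E-boxes; both motifs outside this window were not looked for.

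**Figure D2:**
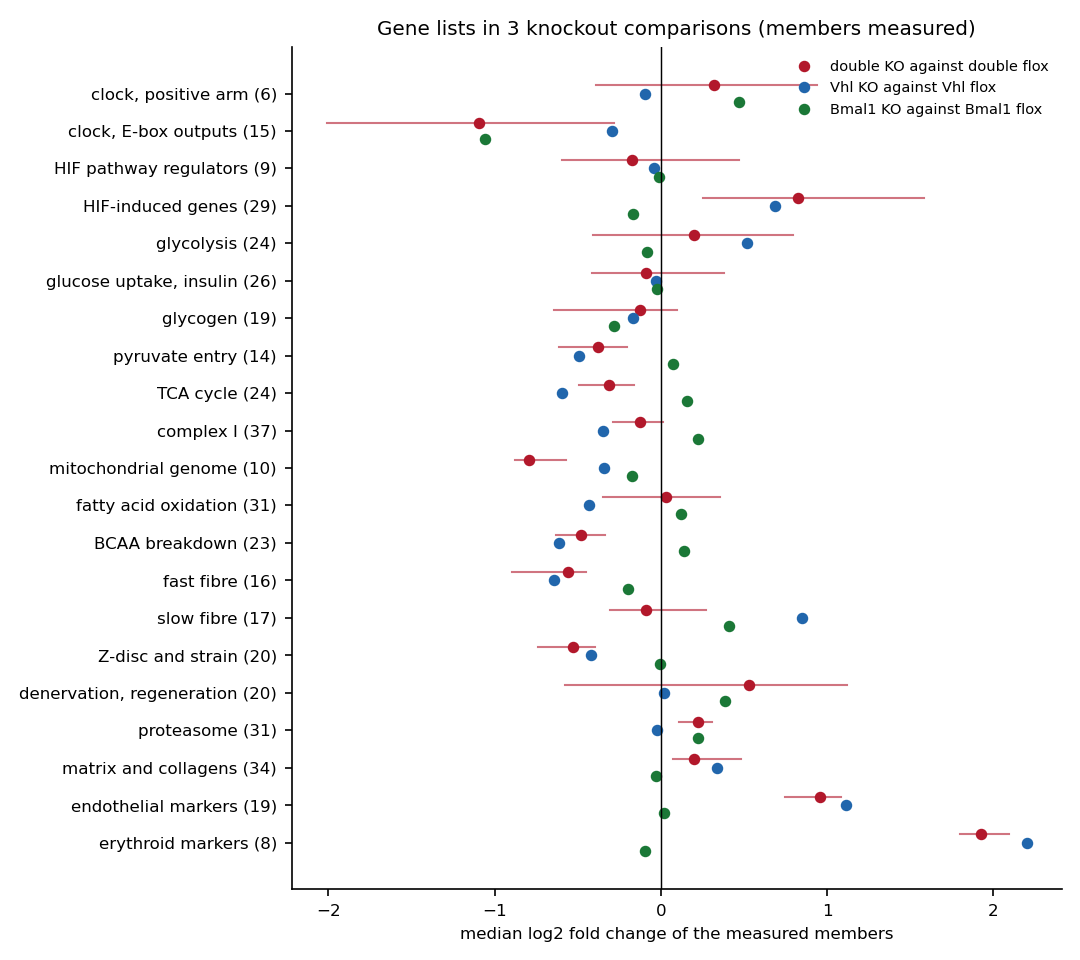
Median log2 fold change of 21 gene lists in the double knockout, the Vhl knockout and the Bmal1 knockout, each against its own floxed control; red lines span the quartiles of list members in the double knockout and the number measured is in parentheses. HIF-induced genes have a median of 0.82 in the double knockout and E-box outputs one of −1.09.

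Glycolytic genes moved in both directions. Of 24 measured enzymes and lactate transporters, 11 rose and 10 fell (median log2 fold change 0.20); the median turned to −0.11 with genes under an average log2 CPM of 1 left out and to −0.07 with the 2 groups fitted alone. Pfkp and Pfkl, the platelet and liver forms of phosphofructokinase, were scarce in controls. Pfkp was at 47.0, 35.02, 34.8 and 38.3 CPM in knockouts 1 to 4, and 3.31 to 5.00 CPM (median 3.86) in the controls (3.24 ± 0.14, adjusted p = 4.39e-24). Pfkl was at 30.2, 33.3, 34.2 and 30.3 CPM in knockouts 1 to 4, and 2.67 to 4.35 CPM (median 3.82) in the controls (3.09 ± 0.15, adjusted p = 1.03e-21). Both were high in every knockout. Pkm (pyruvate kinase) was at 2234, 2128, 2339 and 2286 CPM in knockouts 1 to 4, and 984 to 1106 CPM (median 1065) in the controls (1.09 ± 0.06, adjusted p = 8e-21), and Ldha (the lactate-forming dehydrogenase) at 1847 to 2129 against 1100 to 1279 CPM (0.73 ± 0.07, adjusted p = 3.12e-12), each with all knockouts above all controls. Eno3, the muscle enolase, moved the other way, at 1315 to 1506 against 2592 to 2911 CPM (−0.96 ± 0.07, adjusted p = 9.51e-16). Hk2, the insulin-responsive hexokinase of muscle and chosen after its values were seen, was at 169.6, 179, 179.6 and 188 CPM in knockouts 1 to 4, and 448 to 575 CPM (median 474) in the controls, a fall without overlap (−1.45 ± 0.18, adjusted p = 2.51e-07).

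Glucose uptake genes were divided in the same way: of 26 genes of transport and insulin signalling, 8 rose and 9 fell (median log2 fold change −0.09). Tbc1d1, the Rab GTPase-activating protein that restrains GLUT4 vesicles, was at 11.1, 10.7, 10.0 and 11.4 CPM in knockouts 1 to 4, and 41.5 to 54.1 CPM (median 48.0) in the controls. Every knockout lay far under every control (−2.16 ± 0.12, adjusted p = 2.64e-19). Slc2a3, which encodes the transporter GLUT3, had 12 counts over the 4 knockouts and 273 over the 6 controls (−3.97 ± 0.38, adjusted p = 3.92e-12). Rab13, a GTPase that helps deliver GLUT4, rose by log2 1.67 ± 0.15, adjusted p = 2.69e-13. The basal transporter GLUT1 (Slc2a1) was at 11.9 to 17.4 against 4.21 to 6.86 CPM (1.33 ± 0.15, adjusted p = 4.05e-10), while GLUT4 (Slc2a4), the insulin-responsive one, was at 115 to 139 against 176 to 197 CPM (−0.56 ± 0.07, adjusted p = 2.44e-09). The values of both had been seen when they were chosen.

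Glycogen genes mostly fell where they moved. Of 19, 1 rose and 8 fell (median log2 fold change −0.12). Phka1, the muscle regulatory subunit of phosphorylase kinase, was at 129.7, 128, 172 and 165 CPM in knockouts 1 to 4, and 349 to 422 CPM (median 394) in the controls (−1.40 ± 0.09, adjusted p = 8.69e-16), without overlap. Ppp1r3a, the glycogen-targeting subunit of protein phosphatase 1 (log2 −0.99), and Pgm2, annotated as a phosphoglucomutase (−0.69), fell as well. Without TMM scaling the median of this list turned to 0.23.

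At the entry of pyruvate into mitochondria, 3 rose and 9 fell (median log2 fold change −0.38) among 14 genes. Pdk1, the pyruvate dehydrogenase kinase induced by HIF, was at 73.4, 73.0, 89.4 and 82.5 CPM in knockouts 1 to 4, and 19.9 to 31.3 CPM (median 25.3) in the controls. All knockouts were above all controls (1.62 ± 0.09, adjusted p = 6.18e-20). Mpc1, a subunit of the mitochondrial pyruvate carrier, was at 20.2, 11.9, 15.7 and 13.8 CPM in knockouts 1 to 4, and 37.6 to 49.5 CPM (median 42.7) in the controls, with every knockout under every control (−1.49 ± 0.12, adjusted p = 1.09e-13). Pdp1, the phosphatase that reactivates pyruvate dehydrogenase (log2 −1.37), and Dlat, its acetyltransferase subunit (−0.68), fell.

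Genes of the TCA cycle mostly fell, by small amounts. Of 24 genes of the TCA cycle and its side entries, 1 rose and 15 fell (median log2 fold change −0.31). Idh3a (isocitrate dehydrogenase) was at 210 to 234 against 284 to 330.3 CPM (−0.48 ± 0.06, adjusted p = 9.84e-09), and Fh1 (fumarase) and Dlst (part of the 2-oxoglutarate dehydrogenase complex) changed by log2 −0.53 and −0.52. The 1 that rose was Me3, the mitochondrial malic enzyme, at 27.8 to 35.3 against 17.5 to 21.5 CPM (0.68 ± 0.09, adjusted p = 1.72e-08). Without TMM scaling the median of the list was 0.05, and Idh3a, Fh1 and Dlst were no longer called.

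In the nuclear-encoded respiratory chain, complex I had 3 risers and 16 fallers of 37 (median −0.13), complex III 0 and 4 of 10 (−0.15), complex IV 1 and 3 of 15 (−0.03) and ATP synthase 0 and 6 of 16 (−0.10). The medians of complexes I and III and of ATP synthase turned positive without TMM scaling, to 0.23, 0.21 and 0.25. That of complex IV was too small to be included in this check of sign. The clearest fall was that of Cox6a2, the muscle form of a complex IV subunit, at 1411, 1149, 1157 and 1196 CPM in knockouts 1 to 4, and 2044 to 2253 CPM (median 2155) in the controls (−0.80 ± 0.08, adjusted p = 6.86e-11), with no overlap. Subunits of complex I such as Ndufs7 (log2 −0.40) and Ndufa8 (−0.37), the core proteins Uqcrc1 (−0.46) and Uqcrc2 (−0.33) and cytochrome c1 (Cyc1, −0.33) of complex III, and the subunit Cox7a2l (−0.47) fell by less. Ndufs4, a complex I subunit, rose by 0.36. Cox7a1, the muscle isoform of a complex IV subunit, rose by log2 0.23, a call lost without knockout 4 (adjusted p = 0.0589) or control 6 (adjusted p = 0.053). In ATP synthase, Atp5f1, Atp5d and Atp5g3 changed by −0.31, −0.29 and −0.23. For Uqcrc2, Cyc1, Atp5f1, Atp5d and Atp5g3 the sign turned positive without TMM scaling, and Ndufs7, Ndufa8, Uqcrc1 and Cox7a2l lost their calls.

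Transcripts of the mitochondrial genome fell further. Of the 25 mitochondrial genes tested, 10 belonged to the list used here, and of these 0 rose and 8 fell (median log2 fold change −0.79). mt-Nd1, a complex I subunit, was at 13370, 13520, 15890 and 16150 CPM in knockouts 1 to 4, and 24850 to 27840 CPM (median 25510) in the controls (−0.82 ± 0.07, adjusted p = 6.22e-13). The animals did not overlap. mt-Cytb of complex III changed by log2 −0.86 ± 0.11, adjusted p = 8.87e-08, and mt-Co1 of complex IV by −0.94 ± 0.12, adjusted p = 2.59e-07. mt-Nd2 was at 14030, 27450, 16370 and 30180 CPM in knockouts 1 to 4, and 27220 to 59180 CPM (median 49080) in the controls, with overlap and a wide spread in both groups (−1.10 ± 0.23, adjusted p = 0.000313). In single animals the median of these transcripts was −0.98 to −0.44 in knockouts and −0.33 to 0.15 in controls, relative to the control mean.

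Among 21 regulators of mitochondrial biogenesis 1 rose and 8 fell (median log2 fold change −0.26); the median was 0.10 without TMM scaling. Ppargc1a, which encodes the coactivator PGC-1 alpha, was at 30.0, 37.8, 37.5 and 51.1 CPM in knockouts 1 to 4, and 107 to 165 CPM (median 125) in the controls. Every knockout was under every control (−1.71 ± 0.33, adjusted p = 0.000147). Esrra (estrogen-related receptor alpha) fell (log2 fold change −0.40 ± 0.08, adjusted p = 7.05e-05), a call lost without TMM scaling (adjusted p = 0.633), and Ppard (PPAR delta) rose by 0.82 ± 0.12, adjusted p = 1.04e-07. Of 19 mitophagy and dynamics genes, 3 rose and 8 fell (median log2 fold change −0.16), the last turning to 0.20 without TMM scaling; Bnip3 and Bnip3l are 2 of the risers, and Mfn1 (mitofusin 1, needed for fusion) changed by −0.46, not called without TMM scaling (adjusted p = 0.255).

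Breakdown of branched-chain amino acids had the largest share of fallers among the metabolic lists: of 23 genes, 0 rose and 21 fell (median log2 fold change −0.48), against 18.1% falling among all genes. Dbt, the core of the branched-chain ketoacid dehydrogenase, was at 7.67, 4.81, 6.09 and 6.50 CPM in knockouts 1 to 4, and 10.9 to 18.4 CPM (median 14.6) in the controls (−1.26 ± 0.14, adjusted p = 2.25e-10). Bckdhb, another subunit of that complex, was at 7.01, 4.95, 5.78 and 5.17 CPM in knockouts 1 to 4, and 10.9 to 16.3 CPM (median 13.1) in the controls (−1.23 ± 0.14, adjusted p = 1.09e-09). Knockouts and controls did not overlap in either. Mut, the methylmalonyl-CoA mutase, was at 33.1 to 35.1 against 50.5 to 60.2 CPM (−0.69 ± 0.07, adjusted p = 9.38e-11). The medians of this list in single animals were −0.46 to −0.38 in knockouts and −0.07 to 0.06 in controls. These medians and the count of fallers are after TMM scaling, without which the median gene read 0.352 higher on the log2 scale.

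Fatty acid genes had no common direction. Of 31 genes of uptake and oxidation, 9 rose and 9 fell (median log2 fold change 0.03). Slc25a20 (the carnitine-acylcarnitine carrier), Hadh and Echs1 (steps of beta oxidation) and Acacb (acetyl-CoA carboxylase 2) fell, with log2 fold changes of −0.67, −0.65, −0.58 and −0.60; Echs1 was not called without TMM scaling (adjusted p = 0.091). Of 23 genes of lipid synthesis and storage, 9 rose and 5 fell (median log2 fold change 0.33). Dgat2, which completes triglyceride synthesis, was at 10.6, 7.21, 4.78 and 8.29 CPM in knockouts 1 to 4, and 29.6 to 44.4 CPM (median 36.1) in the controls (−2.27 ± 0.26, adjusted p = 7.68e-08), all knockouts under all controls. G0s2, an inhibitor of the lipase ATGL known as a PPAR target, was at 24.96 to 30.2 against 9.30 to 12.4 CPM (1.33 ± 0.14, adjusted p = 1.53e-10). Scd2, a desaturase, rose by 0.95, and Mlxipl, which encodes the carbohydrate response factor ChREBP, fell (log2 fold change −0.95 ± 0.10, adjusted p = 8.1e-11).

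Most fast fibre genes fell. Of 16 fast fibre genes, 0 rose and 14 fell (median log2 fold change −0.56). Myh4, the 2B myosin heavy chain and the most abundant of them, was at 28230, 32000, 28880 and 32390 CPM in knockouts 1 to 4, and 40150 to 44550 CPM (median 42660) in the controls. The groups did not overlap, and the change was modest (−0.49 ± 0.07, adjusted p = 3.28e-08, not called without TMM scaling, adjusted p = 0.0728). Myh2, the 2A chain, chosen after its values were seen, was at 621 to 951 against 1613 to 2107 CPM (−1.24 ± 0.19, adjusted p = 9.27e-06). Myl1, the fast alkali light chain, was at 3010, 3097, 4012 and 3254 CPM in knockouts 1 to 4, and 7532 to 8327 CPM (median 7858) in the controls (−1.23 ± 0.07, adjusted p = 5.57e-20). Tpm1, the fast tropomyosin, was at 11540, 13250, 13080 and 12400 CPM in knockouts 1 to 4, and 24170 to 27580 CPM (median 25200) in the controls (−1.03 ± 0.06, adjusted p = 1.63e-18). The thin filament genes Acta1 (skeletal alpha actin, log2 −0.75) and Tnnt3 (fast troponin T, −0.52) and the Z-disc protein Myoz1 (−0.64) fell with them. As bulk values, these cannot tell fewer fibres of a type from less RNA per fibre.

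The slow programme did not rise as a whole: of 17 slow fibre genes, 4 rose and 2 fell (median log2 fold change −0.09). The risers were Pln, Sln, Casq2 and Mb. Mb, which encodes myoglobin, was at 4060, 3382, 3126 and 3314 CPM in knockouts 1 to 4, and 1690 to 2129 CPM (median 2031) in the controls (0.80 ± 0.08, adjusted p = 6.1e-12). Myh7, the slow myosin heavy chain, was at 110, 119, 93.3 and 119.6 CPM in knockouts 1 to 4, and 86.8 to 166 CPM (median 149) in the controls; the ranges overlapped and the change was not called (−0.33 ± 0.34, adjusted p = 0.492). Myl3, the slow ventricular light chain, was at 276 to 396 against 327 to 433 CPM (−0.31 ± 0.27, adjusted p = 0.406). Myl3 was called with the 2 groups fitted alone (adjusted p = 0.0207). Both were chosen after their values were seen, and their sign turned without TMM scaling. Mybpc1, the slow myosin-binding protein C, fell (log2 fold change −0.85 ± 0.12, adjusted p = 8.39e-07).

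Of 24 calcium handling genes, 7 rose and 9 fell (median log2 fold change −0.10). Sln, which encodes sarcolipin, was at 97.3, 55.5, 62.8 and 61.4 CPM in knockouts 1 to 4, and 1.74 to 8.06 CPM (median 2.21) in the controls, with all knockouts high (4.38 ± 0.30, adjusted p = 2.18e-12). Pln, which encodes phospholamban, was at 32.7, 19.7, 24.4 and 26.4 CPM in knockouts 1 to 4, and 1.34 to 2.57 CPM (median 1.92) in the controls (3.72 ± 0.20, adjusted p = 4.05e-19). Mrln, which encodes another small SERCA inhibitor, myoregulin, was at 471, 469.5, 518 and 494 CPM in knockouts 1 to 4, and 130.4 to 157 CPM (median 142) in the controls (1.77 ± 0.07, adjusted p = 9.35e-26). All 3 pump inhibitors were thus higher in every knockout than in any control. Jph2 (junctophilin 2, which ties the store to the T-tubule) was at 80.2 to 95.4 against 172 to 210 CPM (−1.13 ± 0.08, adjusted p = 1.24e-15).

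Genes of the Z-disc and of strained sarcomeres mostly fell: of 20, 2 rose and 15 fell (median log2 fold change −0.53). Tcap, which encodes telethonin and caps titin at the Z-disc, was at 366, 352, 435 and 449.9 CPM in knockouts 1 to 4, and 2206 to 2358 CPM (median 2260) in the controls. The spread within each group was small beside the gap (−2.50 ± 0.08, adjusted p = 2.15e-29). Xirp2 (log2 −0.72) and titin (Ttn, −0.56) fell, and Murc, the muscle-restricted cavin, rose (0.77).

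Denervation and regeneration genes leaned upward: of 20, 10 rose and 5 fell (median log2 fold change 0.53). Chrna1, the alpha subunit of the muscle acetylcholine receptor, was at 70.9, 74.1, 95.7 and 86.1 CPM in knockouts 1 to 4, and 10.5 to 17.3 CPM (median 12.1) in the controls (2.69 ± 0.14, adjusted p = 3.38e-17). Chrnb1, its beta subunit, was at 37.6, 24.8, 28.4 and 31.2 CPM in knockouts 1 to 4, and 10.7 to 13.4 CPM (median 11.5) in the controls (1.37 ± 0.11, adjusted p = 6.3e-14). Both were higher in every knockout than in any control. Myod1, a myogenic factor, rose by log2 0.86 ± 0.17, adjusted p = 0.000177, and Hdac4, a deacetylase that responds to nerve activity, fell (−0.93 ± 0.11, adjusted p = 8.84e-09). Mybph, a myosin-binding protein, was called by a thin margin (−0.78 ± 0.30, adjusted p = 0.0439); leaving out any of 6 animals (knockouts 2, 3 or 4, controls 1, 4 or 5) ended the call, with adjusted p up to 0.168.

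Of 31 proteasome subunits, 18 rose and 1 fell (median log2 fold change 0.22), among them Psmb3 (log2 0.70 ± 0.08, adjusted p = 1.88e-10), Psmc3 (0.55 ± 0.07, adjusted p = 2.58e-09) and Psmd4 (0.41 ± 0.07, adjusted p = 1.71e-05). Of 51 cytosolic ribosomal proteins, 4 rose and 12 fell (median log2 fold change −0.05). Rpsa was at 110.1 to 120.3 against 157 to 168 CPM (log2 −0.50) and Rps2 at 157 to 164 against 215 to 241 CPM (−0.51), and neither was called without TMM scaling. Of 34 matrix genes, 12 rose and 0 fell (median log2 fold change 0.20); Col4a1, a basement membrane collagen, was at 99.1, 129.7, 109 and 106 CPM in knockouts 1 to 4, and 62.2 to 74.2 CPM (median 69.4) in the controls (0.69 ± 0.08, adjusted p = 1.46e-09), and Tgfb1, the growth factor, rose by 1.65 ± 0.31, adjusted p = 3.55e-05 on 48 counts over the controls.

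**Figure D3:**
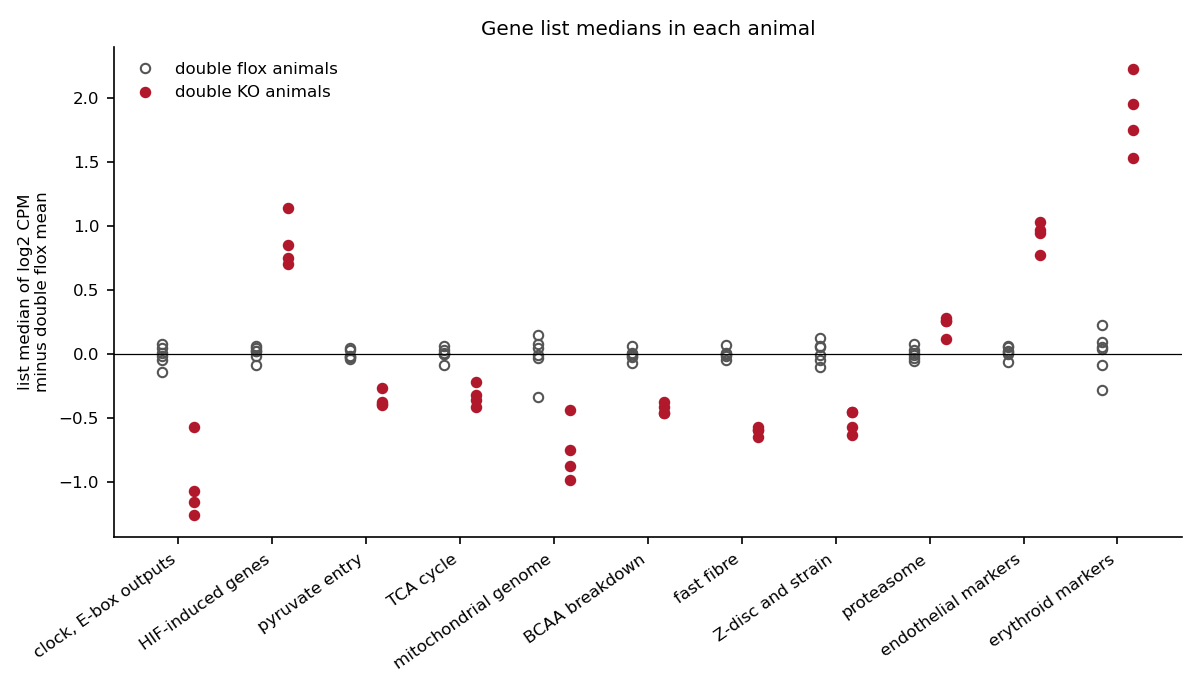
Median of 11 gene lists in each animal, as log2 CPM minus the mean of the 6 controls; open circles are controls and red circles double knockouts. For the mitochondrial genome the controls lie at −0.33 to 0.15 and the knockouts at −0.98 to −0.44.

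Most endothelial markers rose. Of 19 endothelial markers, 17 rose and 0 fell (median log2 fold change 0.96), against 17.4% rising among all genes, and their sum was 707 to 911 CPM in knockouts and 314 to 370 CPM in controls. Flt1, the VEGF receptor 1, was at 122, 117, 115 and 113 CPM in knockouts 1 to 4, and 45.4 to 55.9 CPM (median 50.1) in the controls (1.22 ± 0.07, adjusted p = 6.55e-19). Cdh5, the VE-cadherin of endothelial junctions, was at 57.4, 46.5, 44.2 and 38.7 CPM in knockouts 1 to 4, and 19.8 to 24.2 CPM (median 23.2) in the controls (1.04 ± 0.10, adjusted p = 5.87e-12). No animal of one group reached the range of the other. Of 13 pericyte and smooth muscle markers, 8 rose and 2 fell (median log2 fold change 0.61), and their sum overlapped, at 2293 to 2605 against 1800 to 2509 CPM. The sums of both lists are without TMM. Its larger factors in the knockouts (1.20 to 1.32 against 0.937 to 1.08) would lower their sums relative to the controls. After TMM, the pericyte list median in single animals, relative to the control mean, was 0.43 to 0.61 in knockouts and −0.06 to 0.15 in controls. Rgs5, a pericyte marker, was at 334 to 406 against 176 to 198 CPM (1.01 ± 0.06, adjusted p = 5.62e-18), and Myh11, the smooth muscle myosin, rose by log2 0.97 ± 0.11, adjusted p = 3.74e-10. Whether more cells or more RNA per cell gave these levels cannot be told apart.

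Of 19 vessel-growth ligands and enzymes, 9 rose and 3 fell (median log2 fold change 0.21). Vegfa, the main growth factor of vessels, was at 208, 267, 193 and 275 CPM in knockouts 1 to 4, and 72.7 to 127 CPM (median 92.2) in the controls (1.32 ± 0.12, adjusted p = 1.27e-10), with every knockout above every control. Adm (adrenomedullin, a vasodilator peptide) was at 20.5 to 39.7 against 1.52 to 3.23 CPM (3.57 ± 0.22, adjusted p = 2.06e-15), and Apln, the ligand of the apelin receptor, at 5.32 to 10.6 against 0.256 to 2.73 CPM (2.31 ± 0.35, adjusted p = 2.49e-06). Nos1, the neuronal nitric oxide synthase of fibres, was at 25.2, 27.3, 25.7 and 36.9 CPM in knockouts 1 to 4, and 62.1 to 84.7 CPM (median 75.7) in the controls, under all controls (−1.38 ± 0.15, adjusted p = 9.44e-09).

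Red cell transcripts rose too. Of 8 erythroid markers, 7 rose and 1 fell (median log2 fold change 1.93), and their sum without TMM was 3894 to 6365 CPM in knockouts and 900 to 1432 CPM in controls. Hbb-bs, a beta globin that shares reads with its near copy Hbb-bt, was at 2114, 1798, 2321 and 2896 CPM in knockouts 1 to 4, and 469 to 673 CPM (median 594) in the controls (1.98 ± 0.19, adjusted p = 2.55e-09). Alas2, the red cell enzyme of haem synthesis, was at 28.7, 21.1, 29.2 and 29.4 CPM in knockouts 1 to 4, and 4.38 to 8.95 CPM (median 6.27) in the controls (2.10 ± 0.23, adjusted p = 1.2e-08). Neither overlapped between groups. These are transcripts of red cells and their precursors, and their part in the vessel and fibre results was not tested.

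Markers of other cells were also measured, with sums given without TMM. Its larger factors in the knockouts would lower their sums relative to the controls. Macrophage markers summed to 193 to 225 CPM in knockouts and 113 to 162 CPM in controls, but 2 of 14 were called, both higher. After TMM, the macrophage list medians in single animals, relative to the control mean, overlapped. They were 0.18 to 0.30 in knockouts and −0.24 to 0.26 in controls. Ighm, an immunoglobulin chain, was the 1 B cell marker of 5 called (89.2 to 175 against 44.2 to 50.5 CPM, 1.33 ± 0.25, adjusted p = 9.23e-05). None of 3 neutrophil and 3 T cell markers passed. In the controls 2 of 9 neutrophil, 1 of 11 adipocyte and 1 of 9 keratinocyte markers were at 0. Satellite cell markers had 5 risers of 7 (median 0.71; sum 130 to 151 against 63.5 to 80.1 CPM), with Chodl at 11.8 to 16.8 against 7.43 to 8.68 CPM (0.86 ± 0.11, adjusted p = 2.41e-08). Of 10 fat cell markers, 1 rose and 4 fell (median log2 fold change −0.69). Lep (leptin, −1.93 ± 0.62, adjusted p = 0.0165) and Cidec, a lipid droplet protein (−1.64 ± 0.53, adjusted p = 0.0177), fell, Fabp4, also made in endothelium, rose (0.80 ± 0.22, adjusted p = 0.00473), and their summed level overlapped between groups (2629 to 4037 against 2509 to 3492 CPM). The Lep call was lost without knockout 2 (adjusted p = 0.0506) or 4 (adjusted p = 0.0536), and that of Cidec without knockout 2 (adjusted p = 0.0581) or 3 (adjusted p = 0.052) and without TMM scaling (adjusted p = 0.0529). Fibro-adipogenic markers had 5 risers of 12 (sum 1785 to 2107 against 1256 to 1599 CPM), Schwann cell markers 1 of 9, and tenocyte markers 1 faller of 9. The fibro-adipogenic list medians of single animals after TMM overlapped too, at 0.11 to 0.29 in knockouts and −0.10 to 0.14 in controls. The 1 keratinocyte marker called, Dsp, stood at 8.61 CPM in knockout 4 and was not called without that animal (adjusted p = 0.307), nor without any 1 of controls 1, 3, 4 and 6 (adjusted p 0.055 to 0.0594).

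Set against the single knockouts, the double knockout shared calls with both. The Vhl knockout had 4876 called genes (37.2% of those tested, 17.7% higher and 19.5% lower) and the Bmal1 knockout 1820 (13.9%, 6.94% higher and 6.96% lower). Of the genes that rose in the double knockout 54.3% also rose with Vhl loss alone and 19.1% with Bmal1 loss alone, which are 53.1% and 47.7% of the risers of those lines. Of those that fell 60.8% fell with Vhl loss and 27.6% with Bmal1 loss, or 56.3% and 71.7% of their fallers. Rising in neither single line were 811, and falling in neither 707; a missed call in a single line does not show that its effect differed. Tested as a difference between effects, 1121 genes (8.56%) differed from the Vhl effect, 4.51% of those tested being higher and 4.06% lower. From the Bmal1 effect 2191 (16.7%) differed, 7.69% higher and 9.04% lower. Each effect is measured from its own floxed line, and those lines were not alike. The mean mitochondrial share was 27.4% in the double floxed, 37.1% in the Vhl floxed and 31.3% in the Bmal1 floxed controls. Their median TMM factors were 0.977, 0.843 and 0.958. A difference between effects here and below therefore cannot be told apart from a difference between lines.

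The list of HIF-induced genes had a median of 0.69 in the Vhl line and of −0.17 in the Bmal1 line. Members differed from the Vhl effect in 1 case, a lower one, and from the Bmal1 effect in 18, all higher. Egln3 changed by log2 4.19 with Vhl loss and −0.50 with Bmal1 loss, and the double effect differed from the second by 4.57 ± 0.19, adjusted p = 1.36e-17. Ak4 differed from it by 7.56 ± 0.25, adjusted p = 2.23e-27, Car9 by 5.68 ± 0.31, adjusted p = 1.58e-19 and Tph1 by 4.71 ± 0.39, adjusted p = 1.68e-11. Stab2, a scavenger receptor of sinusoidal endothelium, rose in the double knockout (log2 1.56) and fell in the Bmal1 line (−3.45), a difference of 5.01 ± 0.25, adjusted p = 5.08e-21. Against the Vhl effect, Egln3 differed by −0.12 ± 0.18, adjusted p = 0.738, Car9 by −0.13 ± 0.33, adjusted p = 0.868 and Ak4 by −0.08 ± 0.22, adjusted p = 0.867, none of them called.

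The clock outputs had a median of −1.06 in the Bmal1 line and −0.29 in the Vhl line. Of the 15, 8 were lower and 1 higher in the double knockout than the Vhl effect, and 3 were lower and 1 higher than the Bmal1 effect. For Dbp the difference was −2.15 ± 0.25, adjusted p = 3.01e-07 against the Vhl effect and −0.52 ± 0.26, adjusted p = 0.189 against the Bmal1 effect. Clock differed by 0.64 ± 0.11, adjusted p = 7.12e-05 and −0.25 ± 0.10, adjusted p = 0.0911 in turn. Atp8a2, a lipid flippase (difference from the Vhl effect 1.95 ± 0.31, adjusted p = 2.08e-05), the phosphatase Dupd1 (2.06 ± 0.27, adjusted p = 9.58e-06), the tubulin-modifying enzyme Ttll7 (2.05 ± 0.11, adjusted p = 3.56e-20) and Ighm (2.10 ± 0.36, adjusted p = 0.000342) were the other highest differences, beside Cdkn1a (2.18 ± 0.33, adjusted p = 6.83e-05). Ttll7 fell with Vhl loss (log2 −0.58) and rose in the double (1.46) and Bmal1 lines (1.04).

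**Figure D4:**
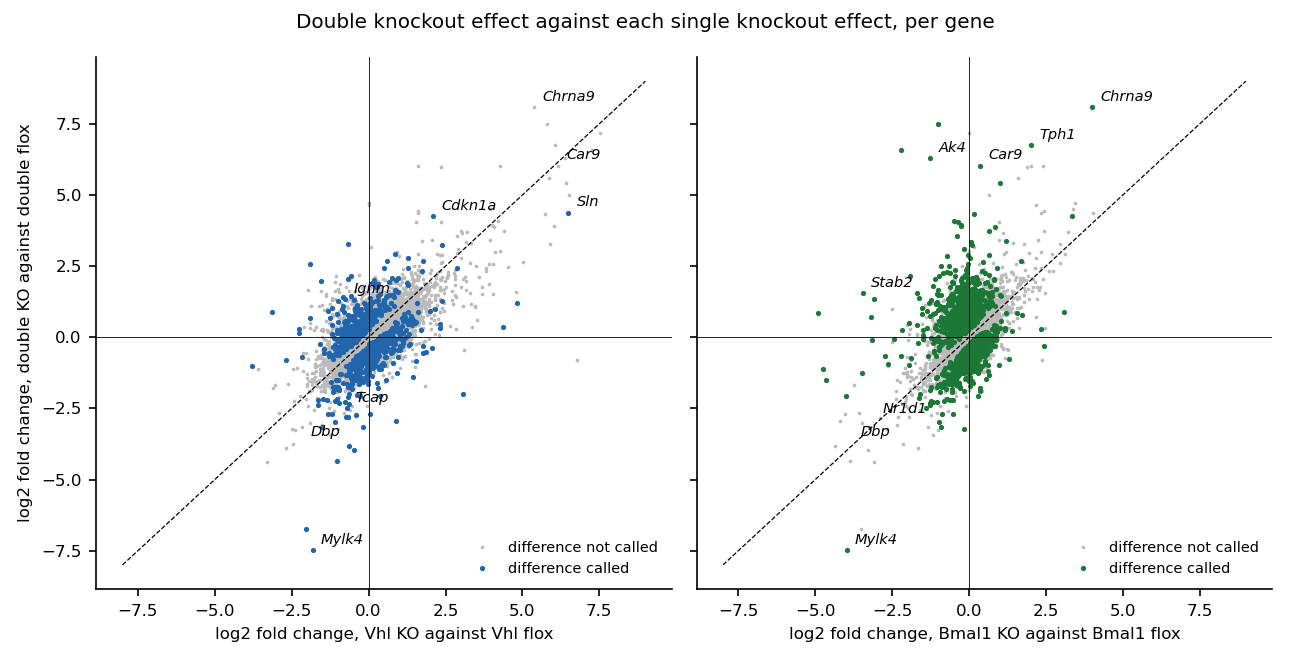
Log2 fold change of each tested gene in the double knockout (vertical axis) against that in the Vhl knockout (left) and the Bmal1 knockout (right), each against its own floxed control; coloured points are the 1121 and 2191 genes whose difference was called, and the dashed line marks equal effects. Mylk4 lies far under the line in both panels.

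Some slow fibre and oxidative genes differed from the Vhl effect. Slow fibre genes had a median of 0.85 with Vhl loss, 0.41 with Bmal1 loss and −0.09 with both. Of 17, 3 were lower than the Vhl effect: Sln (−2.11 ± 0.48, adjusted p = 0.00551), Myl3 (−1.31 ± 0.38, adjusted p = 0.0293) and Car3, a muscle carbonic anhydrase that fat also makes (−1.01 ± 0.19, adjusted p = 0.000665). Myh7 differed by −0.99 ± 0.48, adjusted p = 0.225, which was not called. TCA cycle genes had medians of −0.59, 0.16 and −0.31 in the Vhl, Bmal1 and double lines, and 13 of 24 were higher than the Vhl effect while 17 were lower than the Bmal1 effect. For complex I the medians were −0.35, 0.22 and −0.13, with 9 of 37 higher than the Vhl effect and 23 lower than the Bmal1 effect. Fatty acid genes, at −0.43 with Vhl loss and 0.03 with both, had 10 of 31 higher. Myh4 fell less than with Vhl loss (difference 0.45 ± 0.09, adjusted p = 0.000712), and 12 of 31 proteasome subunits were higher than the Vhl effect.

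In 303 genes the single knockouts were called in opposite directions. Of the 303, 105 were called like the Vhl line in the double knockout, 52 like the Bmal1 line and 146 were not called. H19, an imprinted long non-coding RNA of muscle, was at 1371, 1084, 929.6 and 1053 CPM in knockouts 1 to 4, and 269 to 346 CPM (median 320.4) in the controls, and changed by log2 1.82 with both lost, 1.54 with Vhl loss and −1.17 with Bmal1 loss. Kcnf1, a potassium channel subunit, had 2.16, 1.65 and −1.93. Car3 had −0.67, 0.34 and −2.73, with overlap between double knockouts and controls, and its call in the double knockout was lost without TMM scaling (adjusted p = 0.0684). H19 and Kcnf1 were chosen after their values were seen.

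Beyond both single effects, by both tests of difference, lay 71 risers and 143 fallers among the 13093 genes tested. Of these, 26 and 49 were called in neither single line. Besides Mylk4, the fallers included Tcap (−1.79 ± 0.10, adjusted p = 2.84e-18 from the Vhl effect and −1.11 ± 0.10, adjusted p = 7.63e-12 from the Bmal1 effect), Snai3 (−1.91 ± 0.38, adjusted p = 0.000816 and −2.01 ± 0.36, adjusted p = 8.37e-05) and Otub2 (−1.50 ± 0.25, adjusted p = 7.52e-05 and −2.18 ± 0.24, adjusted p = 9.27e-09). The risers included Cdkn1a, at 0.92 ± 0.32, adjusted p = 0.0439 from the Bmal1 effect, Pfkp, at 0.85 ± 0.21, adjusted p = 0.00618 from the Vhl effect, and Chrna1, at 0.92 ± 0.21, adjusted p = 0.00464 and 1.02 ± 0.20, adjusted p = 0.00037. These tests compare the double effect with each single effect, not with their sum.

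Among genes called in neither single line, chosen after their values were seen, Bmpr1b (a BMP receptor) was at 2.52, 3.42, 2.85 and 3.76 CPM in knockouts 1 to 4, and 6.91 to 10.6 CPM (median 8.49) in the controls (−1.42 ± 0.19, adjusted p = 5.99e-08). Tmem120a, a membrane protein, was at 1.64 to 3.68 against 4.48 to 7.50 CPM (−1.25 ± 0.23, adjusted p = 1.93e-05). Sco2, a copper chaperone of complex IV assembly, was at 2.82 to 4.603 against 5.11 to 8.58 CPM (−1.15 ± 0.16, adjusted p = 1.64e-07), and Fads6, of the fatty acid desaturase family, at 7.28 to 8.79 against 2.69 to 4.76 CPM (1.14 ± 0.16, adjusted p = 1.27e-07). Each lay outside the control range in all 4 knockouts. Mif, a cytokine known as a HIF target, was chosen in the same way: its rise was smaller than with Vhl loss (difference −0.44 ± 0.10, adjusted p = 0.00343), at 375 to 423 against 66.4 to 89.1 CPM with both lost. Bsg, the chaperone of lactate transporters, rose further (difference 0.55 ± 0.11, adjusted p = 0.000442), at 655 to 984 against 199 to 242 CPM. Rims4 and Mybph were, with Mylk4, Otub2 and Snai3, the 5 lowest against the Bmal1 effect, at −1.98 ± 0.30, adjusted p = 3.46e-06 and −2.07 ± 0.40, adjusted p = 0.000446.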

How the data were processed

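Libraries were made from 300 ng of RNA of frozen whole gastrocnemius with the QuantSeq 3′ FWD kit, per the labels' protocols. FastQC 0.11.4, STAR 2.6.0, HTSeq and edgeR 3.26.8 and the builds mm10 and GRCm38.p4 are named in the submitters' processing notes; the strand setting of the counting was not given in the sources used here. For 48321 genes, raw counts were deposited by the authors, beside a table of normalized counts (a signal, not whole counts). From the raw counts, genes were filtered with filterByExpr, scaled by TMM and fitted with the quasi-likelihood test of edgeR 4.0.16 in R 4.3.3 (robust) over the 32 batch 2 libraries in 6 groups; Benjamini-Hochberg adjusted p under 0.05 was called. All 32 share 1 estimate of spread (26 residual degrees of freedom). The mitochondrial share was compared by an exact permutation test. Symbols were matched to RefSeq promoters on GRCm38.p6 (9522 of 13093 genes).

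Members and 49 gene lists were chosen with earlier results of these data known, so lists carry no test. Named genes were Arntl and Vhl; among genes called with an average log2 CPM of at least 2, the 10 highest and 10 lowest fold changes and the 5 most abundant in each direction; up to 4 members per list by smallest p; and the 5 highest and 5 lowest of each difference between effects. Predicted, Riken, mitochondrial and date-like symbols were left out of the ranking. Some genes that the rule takes are not reported here. Alternatives were size factors of DESeq2 1.42.0 type (RLE), no scaling, other filters, no mitochondrial genes, 2 groups alone, animal number as a block, DESeq2, limma 3.58.1 on the log2 of the deposited normalized counts with a pseudocount of 1, a stricter threshold and leaving out each animal. The fit was tested on simulated data with known changes in a small part of the genes. That simulation did not hold a shift between groups like the one TMM scaling removes here, so it does not test the scaling. Near-identical copies (Hbb-bs with Hbb-bt, Amd1 with Amd2, Gstm genes) may share reads.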

Additional observations from a re-analysis of the deposited data

Results flagged for a closer look

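Among 344 checks of 1 gene or share within a group, 20 held an animal far from the rest of its group by Dixon's criterion, about as many as 1 in 20 would give; 6 fell in knockout 1 and 5 in control 6. In control 6, Chrna9 was at 0.572 CPM, Otub2 at 28.3, Nfil3 at 34.4, Pfkl at 2.67 and Rims4 at 10.4. In control 4, Cdkn1a was at 26.9 CPM, Rora at 205.4 and the mitochondrial share at 22.3%. In control 2, Mb was at 1690 CPM and Hif1a at 11.3, and in control 1 Tef was at 144.1. In knockout 1, Chrna9 was at 51.2 CPM, Npas2 at 1.64, Nr1d1 at 11.8, Scd2 at 13.8, Nqo1 at 37.8 and Sco2 at 4.6. Mybpc1 was at 290.4 CPM in knockout 3, Alas2 at 21.1 in knockout 2 and Dsp at 8.61 in knockout 4. Apart from Dsp, none of these genes lost its call when the animal named was left out.

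The double knockout effect differed from the Vhl effect in 75 of the 171 genes examined singly and from the Bmal1 effect in 124. On the log2 scale the most extreme differences from the Vhl effect were 2.18 for Cdkn1a, 2.10 for Ighm, 2.06 for Dupd1, 2.05 for Ttll7 and 1.95 for Atp8a2, and −5.65 for Mylk4, −2.15 for Dbp, −2.11 for Sln, −1.91 for Snai3 and −1.79 for Tcap. Those from the Bmal1 effect were 7.56 for Ak4, 5.68 for Car9, 5.01 for Stab2, 4.71 for Tph1 and 4.57 for Egln3, and −3.49 for Mylk4, −2.18 for Otub2, −2.07 for Mybph, −2.01 for Snai3 and −1.98 for Rims4.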

How the results depend on the processing

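Without TMM scaling 7008 genes were called in place of 4638, with 88.9% higher in place of 49%, and 23 genes went from lower to higher. Of the 171 genes examined singly, 20 lost their call with the sign kept. A further 7 turned sign, to 0.026 for Uqcrc2, 0.029 for Cyc1, 0.044 for Atp5f1, 0.068 for Atp5d, 0.13 for Atp5g3, 0.022 for Myh7 and 0.045 for Myl3. All of these but Myh7 and Myl3, which were not called with scaling either, lost their call too. Among list medians over 0.10 in size with scaling, those that turned were of HIF regulators (0.18), glycogen (0.23), TCA cycle (0.045), complex I (0.23), complex III (0.21), ATP synthase (0.25), mitochondrial biogenesis (0.10), mitophagy (0.20), heat shock (0.043), NRF2 (0.18) and iron genes (0.21). Smaller medians were left out of this check. The median gene read 0.352 higher without scaling, so the sign of a small negative median should not be relied on. The difference from the Bmal1 effect then had 2804 calls, 89.5% higher in place of 46%. Leaving out genes under an average log2 CPM of 1 turned the positive clock arm to −0.088 and glycolysis to −0.11, and fitting the 2 groups alone turned glycolysis to −0.066. Leaving out 1 animal turned the sign of the medians of Schwann cell markers (−0.019 without knockout 1 to 0.286 without control 4), slow fibre genes (−0.15 to 0.0091, the last without control 6), fatty acid genes (−0.031 without knockout 1 to 0.062), stress genes (−0.089 without knockout 4 to 0.055) and tenocyte markers (−0.14 to 0.11, the last without knockout 2). It moved others by over 1.5 times: without knockout 1 the median was 0.18 for lipid synthesis, −0.060 for complex IV, −0.14 for FOXO genes, −0.11 for ribosomal proteins and 0.32 for neutrophil markers, without knockout 2 it was 0.12 for matrix genes and 0.10 for fibro-adipogenic markers, without knockout 3 0.34 for B cell markers, and without knockout 4 −0.23 for glycogen genes and 0 for keratinocyte markers; without control 3, B and T cell markers were at 1.40 and 0.58. Animal numbers did not pair the samples: deviations of animals with the same number correlated at −0.034, 0.116, 0.0325 and −0.0967, and 0 of 4 knockouts correlated best with their own number. With the number as a block 3865 genes were called, 500 for the difference from Vhl and 775 for that from Bmal1. At adjusted p under 0.01 these were 3268, 545 and 1297. DESeq2 called 4657 and limma 4588 genes. Leaving out 1 animal gave 4088 to 4511 calls, 881 to 1213 for the difference from Vhl, 1978 to 2163 for that from Bmal1, and −8.80 to −6.66 points for the mitochondrial share. The causes were not tested. At this depth genes of few counts (Chrna9, Slc2a3, Ciart, Tgfb1, Dkk3, Snai3, Npas2) carry wide errors, and a gene not called is not shown to be unchanged.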

Other observations

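Stress programmes in the double knockout had no common direction. Of 20 genes of the integrated and endoplasmic reticulum stress responses, 4 rose and 6 fell (median log2 fold change 0.01). The mitochondrial folate enzymes Shmt2 (42.5 to 52.8 against 9.02 to 12.0 CPM, log2 2.19 ± 0.11, adjusted p = 4.24e-21) and Mthfd2 (log2 1.40 ± 0.16, adjusted p = 5.82e-10) rose in knockouts over controls, whereas Herpud1, a gene of protein quality control in the endoplasmic reticulum, was at 42.0, 31.8, 42.0 and 32.5 CPM in knockouts 1 to 4, and 77.0 to 83.9 CPM (median 82.0) in the controls (−1.13 ± 0.08, adjusted p = 3.33e-17), and Ddit3, which encodes CHOP, fell (log2 fold change −0.80 ± 0.13, adjusted p = 1.79e-06). Of 20 heat shock genes, 2 rose and 7 fell (median log2 fold change −0.32), a median that turned to 0.04 without TMM scaling. The co-chaperone Dnajb5 (−0.98) and the mitochondrial chaperonin Hspe1 (−0.69) fell, and the abundant chaperone Hsp90ab1 was at 1496 to 1824 against 1212 to 1482 CPM (0.31 ± 0.07, adjusted p = 0.000221). Of 19 p53 targets, 5 rose and 4 fell (median log2 fold change 0.16). Cdkn1a and Mdm2 (0.38 ± 0.08, adjusted p = 5.32e-05) rose, and Phlda3, another target, was at 85.2, 60.7, 86.0 and 66.7 CPM in knockouts 1 to 4, and 173 to 208 CPM (median 194) in the controls, with all knockouts lower (−1.36 ± 0.10, adjusted p = 1.27e-14).

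Of 24 NRF2 and glutathione genes, 4 rose and 9 fell (median log2 fold change −0.18), turning to 0.18 without TMM scaling. Txnrd1, the cytosolic thioredoxin reductase, was at 19.4 to 32.4 against 45.8 to 52.9 CPM (−0.94 ± 0.10, adjusted p = 5.93e-11). Nqo1, a quinone reductase, was at 37.8, 27.7, 26.5 and 27.5 CPM in knockouts 1 to 4, and 11.2 to 18.7 CPM (median 14.2) in the controls; it rose (1.01 ± 0.11, adjusted p = 1.06e-10) and differed from the Vhl effect by 1.40 ± 0.16, adjusted p = 2.12e-08. Gstm7, of a family of close copies, rose by 2.00 ± 0.26, adjusted p = 3.96e-08. Of 24 FOXO and glucocorticoid genes, 4 rose and 6 fell (median log2 fold change −0.09), with Tsc22d3, the glucocorticoid-induced leucine zipper (−0.72 ± 0.10, adjusted p = 7.66e-07), and Glul, glutamine synthetase (−0.65 ± 0.11, adjusted p = 8.04e-06), among the fallers. Of 16 polyamine and NAD genes, 4 rose and 7 fell (median log2 fold change −0.37). Amd1, which makes the aminopropyl donor of polyamines, was at 142 to 202 against 334 to 395 CPM (−1.13 ± 0.12, adjusted p = 9.86e-09), its close copy Amd2 at −1.43 and spermine synthase (Sms) at −0.71. Of 18 iron and haem genes, 3 rose and 5 fell (median log2 fold change −0.14), turning to 0.21 without TMM scaling, with the iron exporter ferroportin (Slc40a1) at 4.24 to 6.65 against 12.8 to 19.4 CPM (−1.39 ± 0.17, adjusted p = 8.25e-09). Endothelial Ptprb, a phosphatase of vessel junctions, rose by log2 0.88 ± 0.08, adjusted p = 7.82e-13.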
